A study of Mus musculus with 12 samples.

Results

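The miR-148 and miR-152 family comprised 3 of the 577 miRNAs on the arrays: miR-148a, miR-148b and miR-152. Members were taken by name, as the miRNAs whose gene name in the scanner files was mmu-miR-148a, mmu-miR-148b or mmu-miR-152. The rule itself uses no measured value, though the family was picked with earlier results of these data known. The study set 3 mouse mammary carcinoma lines without metastatic behaviour (67NR, 168FARN and 4TO7) against 1 metastatic line (4T1), to ask which miRNAs go with the successive steps of metastasis that the lines stand for. Each line was profiled on 3 one-colour Agilent miRNA arrays, 12 in all, from 100 ng of Trizol-extracted total RNA per array. All 4 lines came from a spontaneous breast cancer of Balb/C mice and are given as wild type and female, with no treatment named, so strain, genotype and sex were shared by every group. Each step was represented by 1 line, so a difference between phenotypes and a difference between lines cannot be told apart. Nothing in the labels tells separate cultures from repeat hybridisations of a line, so p-values measure the spread between these arrays, which may be technical, and the number of arrays limits the precision. In bulk RNA of this kind, fewer cells holding a miRNA and less of it per cell cannot be told apart.

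A miRNA is a short RNA that guides an Argonaute protein to messenger RNAs that pair with its seed, the bases near its 5′ end, and lowers their stability and translation. The members of this family share 1 seed and therefore share most predicted targets. Among the best known is Dnmt1, which encodes the methyltransferase that copies DNA methylation to the new strand after replication. Low miR-148a or miR-152 has been reported in many carcinomas, human breast cancer among them, often with methylation of DNA near the miRNA gene.

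The mature sequences are shown because they define the family and because they differ at few bases, which bears on how far the probes can tell the members apart. All 3 matched a RefSeq entry (assembly GRCm38.p6), and the capitals mark the seed, bases 2 to 8 from the 5′ end.
miR-148a: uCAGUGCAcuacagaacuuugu
miR-148b: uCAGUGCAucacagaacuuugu
miR-152: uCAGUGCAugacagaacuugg
The seed CAGUGCA was carried by 3 of the 1679 mature mouse miRNAs in that table, the 3 members and no other. Counting from 1 at the 5′ end, miR-148a differed from miR-148b over 22 bases by C9U and U10C. Over the 21 bases they share in length, miR-148a differed from miR-152 by C9U, U10G and U20G, and miR-148b differed from miR-152 by C10G and U20G. In all, 18 of 21 positions were the same in the 3 members, and the differences lay just after the seed and near the 3′ end.

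The 3 genes lie on different chromosomes. The array's annotation (mouse build mm9) places the target of the brighter miR-148a probe at chr6:51219828-51219847, that of the brighter miR-148b probe at chr15:103115619-103115637 and that of the brighter miR-152 probe at chr11:96711757-96711773. In the RefSeq annotation (GRCm38.p6), Mir148b overlaps Copz1 and Mir152 overlaps Copz2, which encode alternative zeta subunits of the COPI coat of transport vesicles. Mir148a overlaps no protein-coding gene there, only the predicted gene Gm38821, and its nearest coding neighbours are Npvf and Nfe2l3. The coding neighbours of Mir148b are Nfe2 and Gpr84, and those of Mir152 are Nfe2l1 and Cdk5rap3, so each of the 3 genes lies beside a gene of the Nfe2 family of leucine zipper transcription factors. On chromosome 6, miR-148a lies 960 kb from miR-196b of a Hox cluster, and on chromosome 11 miR-152 lies 533 kb from miR-10a and 585 kb from miR-196a, in mm9 coordinates.

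Signals are the scanner software's background-subtracted brightness units, averaged over the spots of a probe. A probe was called read on an array where at least 50% of its spots were well above background by the software's own flag. For comparisons between lines, a probe's signal was set relative to the 75th percentile of the 171 probes that every one of the 12 arrays read, values under a common floor of 0.0213 (log2 -5.55) were set to it, and log2 was taken. The result is called the level below. A level is comparable between arrays for 1 probe but not between probes, which bind with different strength, so no member's level is set against that of another.

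The 67NR arrays stood apart before any result on the family. Their 75th percentile was 352.7 to 453.5 units, against 598.5 to 1186 on the other 9 arrays, so the lowest level that could be read was higher there, at log2 -5.08 to -4.77 against -6.48 to -5.31. A set of control probes named hur_5 averaged 180 to 207 units on the 67NR arrays and 1.25 to 6.36 units on the others. Levels over the tested miRNAs correlated at 0.993 to 1.000 between arrays of the same line, at 0.541 to 0.638 between 67NR and the other lines, and at 0.960 to 0.965 between 4TO7 and 4T1. Slide 1 held the 3 arrays of 67NR and 1 of 168FARN, and slide 2 the other 8. Of 7 epithelial marker miRNAs (the miR-200 family, miR-203 and miR-205), none was read on all 3 arrays of any line. Their summed signal was 20.7 to 39.5 units in 67NR and -8.34 to 1.96 units elsewhere. miR-200c and miR-141 were each read on 1 array of 67NR, and the other 5 on no array. The labelled mammary tumour origin cannot be judged from these markers. Of 4 mesenchymal markers on the array, 2 were read on all 168FARN arrays, miR-199a-5p and miR-143, with a summed signal of 134 to 219 units there and -6.30 to 2.76 units elsewhere. Of 5 haematopoietic markers, miR-142-3p was read in 168FARN only and the other 4, among them miR-142-5p, in no line. Of 4 muscle markers, miR-206 was read in 168FARN only and the other 3 in no line. miR-9 and miR-128 of 3 nervous system markers were read in every line, and the liver marker miR-122 in none. The part of these differences in the family's values was not tested.

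Each member had its own pattern over the lines. miR-148a was strongest in 67NR, present in 4TO7, near the detection limit in 4T1 and not detected in 168FARN. miR-148b was read on all 12 arrays and was several fold higher in 67NR than in the other lines, which differed little from each other. miR-152 was read in 168FARN and 4TO7 and in neither 67NR nor 4T1. The 4TO7 line was the 1 line of 4 in which all 3 members were read on every array. The tested set held the 226 miRNAs that some line read on each of its 3 arrays, all 3 members among them. Of these, 97 were read on all 12 arrays as miR-148b was. The pattern of miR-148a (all arrays of 67NR and 4TO7, some of 4T1, none of 168FARN) and that of miR-152 (all arrays of 168FARN and 4TO7, none of the others) were each shown by 1 of the 226, the member itself.

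**Figure D1:**
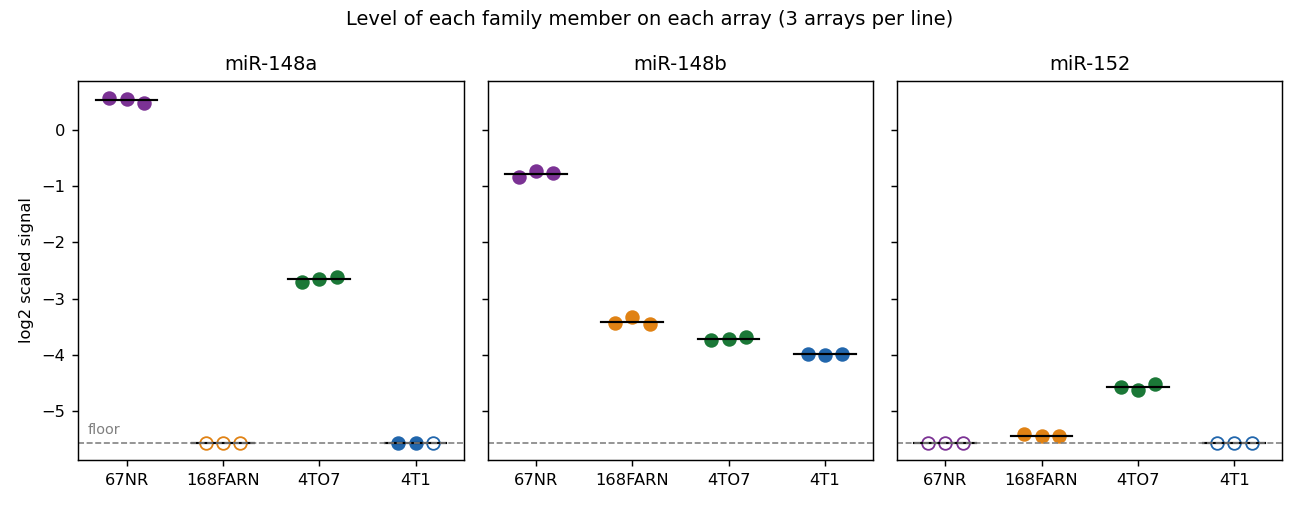
Level of each member (log2 of the scaled signal, vertical axis) on each of the 12 arrays by line, with filled points for arrays on which the probe was read, open points for arrays on which it was not, short bars for the line mean and a dashed line for the floor at -5.55. miR-148a spans the widest range, from 0.53 in 67NR to the floor in 168FARN and 4T1, while miR-152 is near the floor wherever it was read.

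The miR-148a signal was 668, 648 and 487 units on the 3 arrays of 67NR. It was 92.5, 97.9 and 109.9 units in 4TO7 and 15.1, 17.5 and 12.6 units in 4T1. In 168FARN it was -1.40, -0.0108 and 0.316 units, which is background. No line overlapped another in these unscaled signals. The corresponding level was 0.53 ± 0.05 (SD, n = 3) in 67NR and -2.65 ± 0.04 (SD, n = 3) in 4TO7, and both 4T1 and 168FARN were at the floor on every array. The 4T1 arrays were not empty of signal: the probe was read on 2 of 3, with 6, 7 and 2 of 10 spots above background, and the software called the miRNA detected on all 3 arrays, with a gene total of 12.1 to 17.9 units. On the 168FARN arrays it was called detected on none, with a gene total of -1.17 to -0.48 units.

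The difference between 4TO7 and 67NR was measured on both sides. miR-148a was lower in 4TO7 by 3.17 ± 0.03 (SE) on the log2 scale, a 9.03-fold difference (log2 difference -3.17, limma, Benjamini-Hochberg adjusted p = 2.8e-15). It ranked 7th lowest of the 105 miRNAs read on all arrays of both lines. Against lines at the floor only a bound can be given. Each bound, here and below, holds only for the scaling, background correction and probe used here. miR-148a was at least 67.7-fold lower in 4T1 than in 67NR and at least 67.7-fold lower in 168FARN than in 67NR (limma adjusted p = 1.91e-17 for each). It was at least 7.50-fold lower in 4T1 than in 4TO7 (adjusted p = 1.19e-13) and at least 7.50-fold higher in 4TO7 than in 168FARN (adjusted p = 1.19e-14). These p-values belong to differences from the floor, where arrays show no spread, and may be too small. Over the alternative settings the floored difference ranged from -7.11 to -3.82 in 4T1 minus 67NR and from -8.34 to -3.82 in 168FARN minus 67NR. It ranged from -3.68 to -1.26 in 4T1 minus 4TO7 and from 1.26 to 4.91 in 4TO7 minus 168FARN (log2). Between 4T1 and 168FARN both levels were at the floor and no fold is given. With the floor halved the 2 lines differed by 0.46 (log2, higher in 4T1, adjusted p = 2.8e-06), and with the software's gene totals in place of the probe by 1.23 (adjusted p = 2.8e-09). The order of miR-148a was thus 67NR, then 4TO7, then 4T1 and 168FARN, the last pair being apart in the unscaled signals and in the software's detection calls but not in the floored level.

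The miR-148b signal was 253, 265 and 208 units in 67NR. It was 109.5, 91.8 and 70.2 units in 168FARN, 44.9, 46.8 and 52.0 units in 4TO7 and 68.3, 70.0 and 56.3 units in 4T1. All 4 lines were above background, and the unscaled signals of 168FARN, 4TO7 and 4T1 lay between 44.9 and 109.5 units. The level was -0.78 ± 0.05 in 67NR, -3.41 ± 0.07 in 168FARN, -3.71 ± 0.03 in 4TO7 and -3.99 ± 0.02 in 4T1 (SD, n = 3 each). No array of a line overlapped in level with an array of another line, and the order was 67NR, 168FARN, 4TO7, 4T1.

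Against 67NR, miR-148b was lower in all of the other lines. The difference was -3.21 ± 0.04 (log2, SE) in 4T1, which is 9.25-fold (limma adjusted p = 1.53e-14), and it ranked 8th lowest of the 119 miRNAs read in both lines. In 4TO7 the difference was -2.93 ± 0.04 or 7.62-fold (adjusted p = 3.06e-14), and in 168FARN it was -2.63 ± 0.04 or 6.18-fold (adjusted p = 4.91e-14). These 3 comparisons share the 67NR arrays and are not independent of each other. Their size moved with the processing, from -3.63 to -1.90 in 4T1, -3.21 to -1.97 in 4TO7 and -2.95 to -1.44 in 168FARN. Over the 97 miRNAs read on all 12 arrays, the median difference from 67NR was -0.92 in 4T1, -0.74 in 4TO7 and -0.99 in 168FARN. The 67NR value thus set most of the spread of miR-148b over the lines.

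Among the other 3 lines, differences of miR-148b were small. 4T1 was lower than 168FARN by 0.58 ± 0.04 on the log2 scale, a 1.497-fold difference (log2 difference -0.58, limma adjusted p = 8.0e-08), and this call and its direction held under every alternative run. The steps from 168FARN to 4TO7 and from 4TO7 to 4T1 were smaller, and their size or direction moved with the processing. 4TO7 differed from 168FARN by -0.30 ± 0.04 (1.23-fold, adjusted p = 2.24e-05), but by 0.10 (adjusted p = 0.173) after normexp background correction and by -0.90 (adjusted p = 0.000122) with no scaling. The call was lost under normexp correction alone. 4T1 differed from 4TO7 by -0.28 ± 0.04 (1.21-fold, adjusted p = 7.19e-05), but by -0.0066 (adjusted p = 1.00) when arrays were scaled by the 75th percentile of all probes, and by 0.43 (adjusted p = 0.0368) with no scaling, as the unscaled signals above show. The place of 4TO7 in the order therefore depended on scaling against 4T1 and on background correction against 168FARN. The difference of 4T1 from 168FARN ranked 39th lowest of 138 miRNAs read in both lines and that from 4TO7 61st of 142, both well inside the spread of other miRNAs.

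The miR-152 signal was 28.1, 21.2 and 17.7 units in 168FARN and 25.4, 24.9 and 29.3 units in 4TO7. It was 1.76, 3.27 and 0.80 units in 67NR and 2.26, 2.67 and 1.01 units in 4T1. The first pair of lines was read on all 3 arrays each and the second pair on none, and the software called miR-152 detected on no array of 67NR or 4T1. The level was -5.43 ± 0.03 in 168FARN and -4.56 ± 0.05 in 4TO7 (SD, n = 3 each), close to the floor of -5.55. Measured on both sides, miR-152 was 0.86 ± 0.03 (log2, SE) or 1.82-fold higher in 4TO7 than in 168FARN (limma adjusted p = 1.87e-10), the 18th highest of 125 miRNAs read in both. The unscaled signals of these lines overlapped, and the difference was 0.27 (adjusted p = 0.115) with no scaling and 0.014 (adjusted p = 0.291) with the floor doubled.

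The low signal of miR-152 left only small bounds against the unread lines. It was at least 1.99-fold lower in 4T1 than in 4TO7 (limma adjusted p = 1.71e-10) and at least 1.25-fold higher in 4TO7 than in 67NR (adjusted p = 2.48e-11). With the floor doubled the difference of 4T1 minus 4TO7 shrank to -0.014 and its call was lost (limma adjusted p = 0.334). That of 4TO7 minus 67NR shrank likewise, and it turned to -0.081 after normexp correction. In 4T1 it was at least 1.09-fold lower than in 168FARN (adjusted p = 0.002), a call that ended with the floor doubled, after normexp correction, with the mean of all probes and with the percentile over all probes. Between 168FARN and 67NR the floored difference was 0.13 (adjusted p = 0.00158), and no bound is given because the 168FARN level lay below the lowest level that 67NR arrays could read. Its direction turned after normexp correction, to -0.50. The software's gene totals, in which 67NR and 4T1 were not detected either, gave larger differences, of -3.08 in 4T1 minus 4TO7, 2.77 in 4TO7 minus 67NR, -2.10 in 4T1 minus 168FARN and 1.79 in 168FARN minus 67NR (log2). No fold is given between 4T1 and 67NR, where miR-152 was unread on all 6 arrays.

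**Figure D2:**
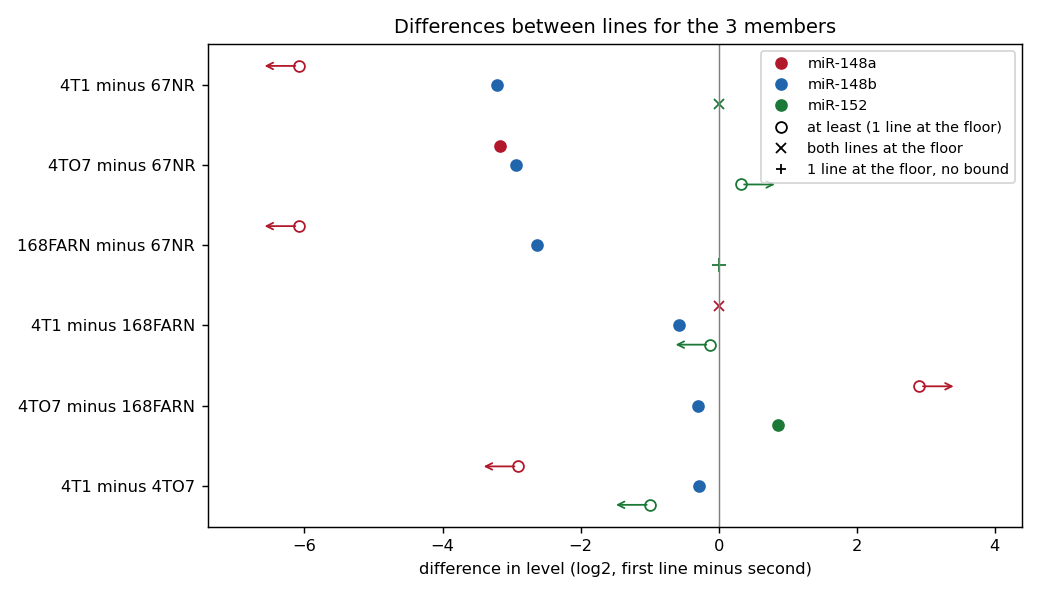
Difference in level between each pair of lines (log2, first line minus second, horizontal axis) for the 3 members, with filled points for differences measured on both sides, open points with arrows for bounds, crosses where both lines were at the floor and a plus where 1 line was and no bound could be set. The differences of miR-148a and miR-148b from 67NR all lie at or below -2.63, while every difference measured on both sides among the other 3 lines lies within 1 log2 unit of 0. The bounds of miR-148a there are larger, at -2.91 in 4T1 minus 4TO7 and 2.91 in 4TO7 minus 168FARN.

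The background of calls was high in every comparison. Between 4T1 and 67NR, 2 of 3 members were called, both lower in 4T1, while 79.6% of the 226 tested miRNAs were called, 31.9% higher and 47.8% lower. Between 4T1 and 168FARN, 2 of 3 were called lower in 4T1 (miR-148b and miR-152) against 73.5% called, 33.2% higher and 40.3% lower. Between 4T1 and 4TO7 all 3 were called lower in 4T1, against 61.1% called, 25.7% higher and 35.4% lower. These shares show that a call alone did not set the members apart from other miRNAs.

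The comparisons among the non-metastatic lines gave the same picture of frequent calls. Between 4TO7 and 67NR all 3 members were called, with miR-148a and miR-148b lower in 4TO7 (48.2% of all tested) and miR-152 higher (31.4%), where 79.6% were called. Between 4TO7 and 168FARN all 3 were called, with miR-148a and miR-152 higher in 4TO7 (34.1%) and miR-148b lower (39.4%), where 73.5% were called. Between 168FARN and 67NR all 3 were called, with miR-148a and miR-148b lower in 168FARN (48.2%) and miR-152 higher (38.9%), where 87.2% were called. miR-148a and miR-152 entered the tested set only through lines in which they were read, so a difference from lines where they were not was built into the filter, and the member counts support nothing by themselves.

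**Figure D3:**
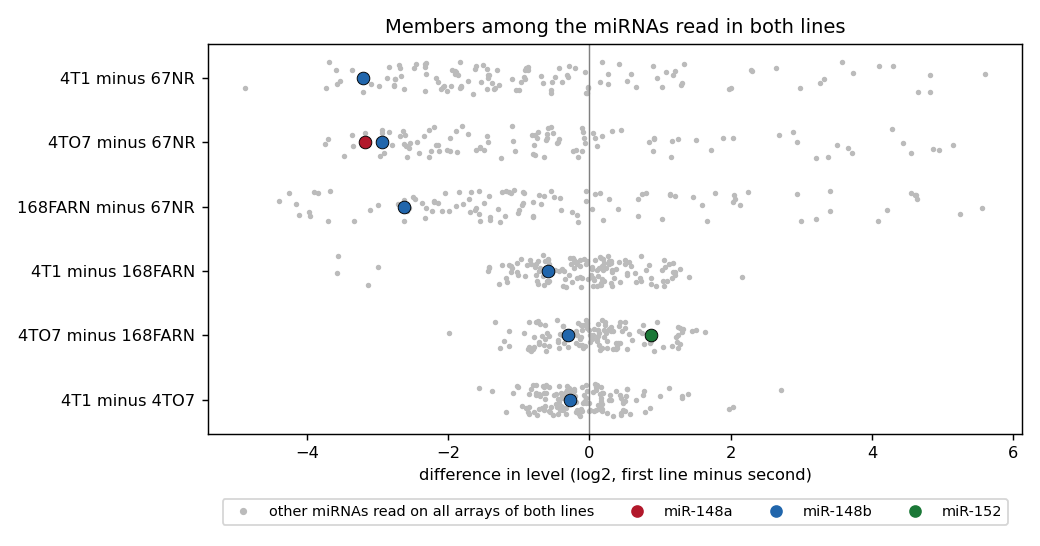
Differences in level (log2, first line minus second, horizontal axis) of all miRNAs read on all arrays of both lines of a pair (grey points, spread vertically for visibility) with the family members in colour. Against 67NR, miR-148a and miR-148b lie toward the lower end of a wide spread, and among the other lines miR-148b lies near the middle of a narrow one.

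The contrast that the study's design names, 4T1 against the mean of the 3 non-metastatic lines, depended on 67NR. For miR-148b it was -1.36 ± 0.03 (log2, SE), a 2.56-fold difference (limma adjusted p = 8.95e-12), 3rd lowest of 97 miRNAs read on all 12 arrays. Without the 67NR arrays it was -0.43 (adjusted p = 2.11e-06). For miR-148a the contrast was -3.00 with all lines and -1.45 without 67NR, and for miR-152 -0.37 and -0.56, all set by the floor. All 3 were called lower in 4T1, where 88.5% of tested miRNAs were called, 28.3% higher and 60.2% lower. That split moved with the scaling, from 64 higher and 136 lower to 93 and 97 by the percentile over all probes and 111 and 66 unscaled. The contrast averages lines that differ: miR-148a was unread in 168FARN and miR-152 unread in 67NR, so the arrays of 4T1 did not lie below all the others for these 2 members.

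Ratios of 2 members within an array do not depend on how arrays are scaled. Their size reflects the probes as well as the miRNAs, and only the change between lines is read here. The log2 ratio of miR-148a to miR-148b was 1.40, 1.29 and 1.23 on the 67NR arrays and 1.04, 1.06 and 1.08 on the 4TO7 arrays, a difference of 0.24 with no overlap. That of miR-148b to miR-152 was 1.96, 2.11 and 1.99 in 168FARN and 0.82, 0.91 and 0.83 in 4TO7, a difference of 1.17 with no overlap. Each gave p = 0.1 in an exact two-sided permutation test over the 20 assignments of arrays to lines, the smallest p that 3 against 3 arrays allow. miR-148a and miR-148b were thus lower in 4TO7 than in 67NR by nearly the same factor, while from 168FARN to 4TO7 the ratio of miR-148b to miR-152 fell. The ratio of miR-148a to miR-152 could be formed in 4TO7 alone, since no other line read both.

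Each member was measured by 2 probes that share 1 end of the target and differ in length by 1 base. The brighter and longer probe, used above, was A_54_P1274 (20 bases) for miR-148a, A_54_P1382 (19 bases) for miR-148b and A_54_P2334 (17 bases) for miR-152. The shorter miR-148a probe, A_54_P1273, gave 0.638 to 0.663 of the longer one's signal in 67NR and 0.664 to 0.687 in 4TO7, and put 4TO7 below 67NR by a log2 difference of -3.12, against -3.17. The probes of miR-148a therefore gave like values in these 2 lines. In 4T1 the shorter one was read on no array, with 1 of 29 spots above background, so the arrays read there rest on the longer one. The floored differences by the shorter probe were smaller. They were -5.46 against -6.08 in 4T1 minus 67NR, and -2.34 against -2.91 in 4T1 minus 4TO7. The shorter miR-152 probe, A_54_P2333, was read on 2 of 3 arrays of 168FARN, with 0.706 to 0.784 of the longer one's signal, and on all 3 of 4TO7, with 0.708 to 0.845. The shorter miR-148b probe, A_54_P1381, gave 0.130 to 0.135 of the longer one's signal in 67NR and was read on no array of the other lines, so the small differences of miR-148b among those lines rest on 1 probe.

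**Figure D4:**
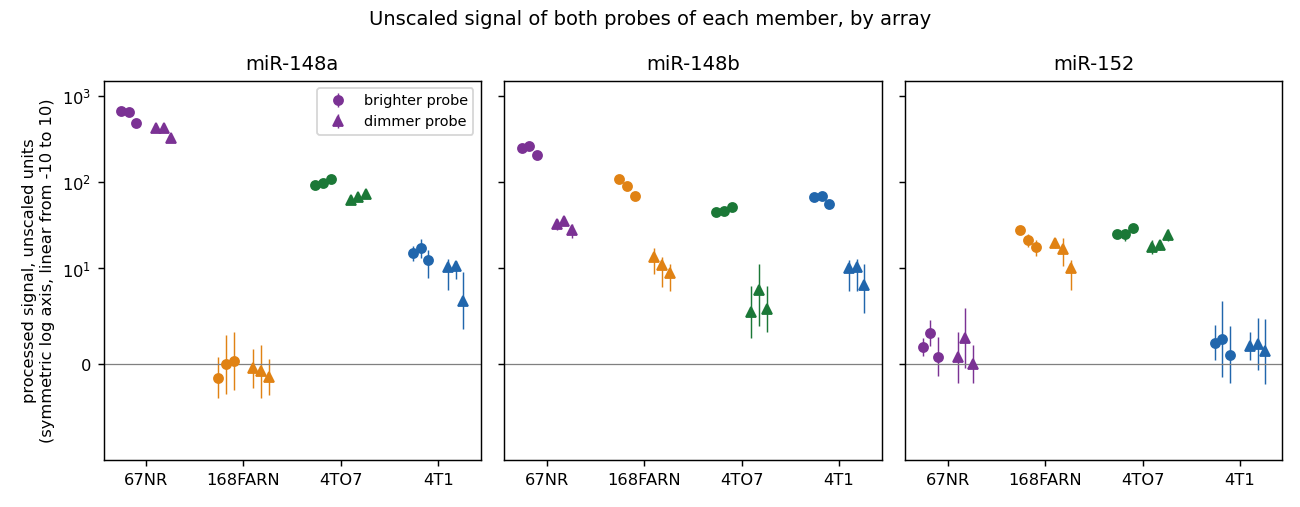
Unscaled signal in brightness units (vertical axis, symmetric log scale, linear between -10 and 10) of the brighter probe (circles) and the dimmer probe (triangles) of each member on each array, with vertical lines for the SD over the spots of the probe. Both miR-148a probes are at 0 in 168FARN, where miR-148b gave 70.2 to 109.5 units, and both miR-152 probes are near 0 in 67NR, where miR-148a gave 487 to 668 units.

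Since the members differ by few bases, each line offers a reading of how far 1 probe pair responds to another member. The miR-148a probes were at background in 168FARN, where miR-148b and miR-152 were both read. In 67NR, where both miR-148a and miR-148b were at their highest, the longer miR-152 probe was at 0.80 to 3.27 units. The shorter one was at -0.018 to 2.71 units there. The opposite case, whether the miR-148b probes pick up miR-148a, has no line in which miR-148a was high and miR-148b absent, and was not tested.

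The passenger strand, the other arm of the hairpin that is usually degraded, was on the array for miR-148a alone. Its sequence is shown for comparison with the mature strands above, again from RefSeq with bases 2 to 8 in capitals.
miR-148a*: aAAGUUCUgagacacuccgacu
miR-148a* was read on none of the 12 arrays. Its brightest probe gave 7.40, 10.6 and 6.64 units in 67NR and -1.90 to 4.23 units in the other lines. A probe not read on any array gives no order of the lines.

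miR-148b was the 1 member read in at least 3 lines, and so the 1 member for which miRNAs with a like pattern were sought. Likeness was the root mean square difference of line means after centring each miRNA on its own mean, over 4 lines and 96 candidates read on all arrays. The closest was miR-331-3p, at 0.11 log2 units, with levels of -0.11 in 67NR, -2.67 in 168FARN, -3.11 in 4TO7 and -3.10 in 4T1. Next came miR-128, at 0.21, with levels of -0.73, -3.83, -4.21 and -4.31 in the same order of lines, and miR-296-5p, at 0.22, with -2.77, -5.36, -5.21 and -5.54. All 3 were highest in 67NR by over 2 log2 units, the feature that dominates the pattern of miR-148b, and the likeness rests on 4 line means.

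**Figure D5:**
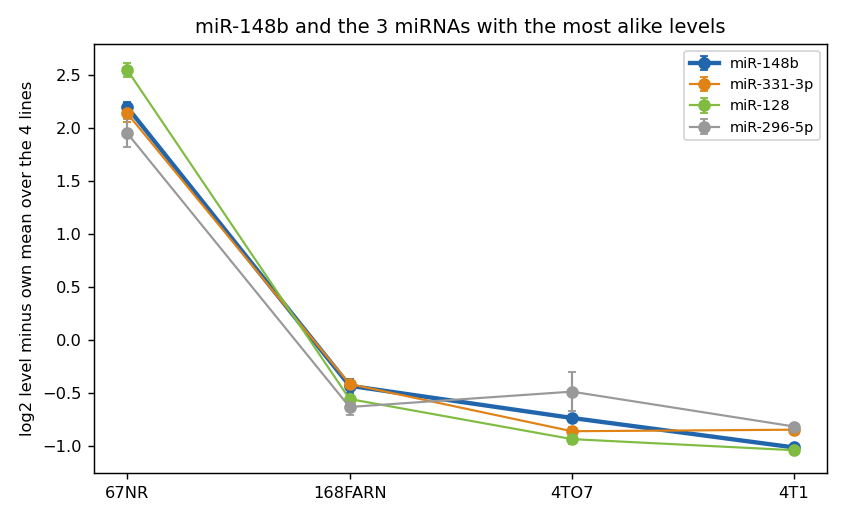
Mean level of miR-148b and of the 3 miRNAs most like it in each line (log2 level minus the miRNA's own mean over the 4 lines, vertical axis), with bars for the SD over 3 arrays. All 4 curves drop from 67NR to 168FARN and stay low in 4TO7 and 4T1.

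Other miRNAs reported to repress DNA methyltransferases, the role for which the family is best known, were taken as miR-29a, miR-29b, miR-29c, miR-143, miR-185 and miR-342-3p. Between 4T1 and 4TO7, 1 of these 6 was higher (25.7% of all tested), 3 were lower (35.4%) and 2 did not pass, with a median difference of -0.12 against 0 over all tested. The 2 that did not pass, miR-143 and miR-342-3p, were unread in both lines. Their difference was thus fixed at 0 by the floor, and it entered the median. miR-185 was higher in 4T1, at least 2.43-fold (limma adjusted p = 5.44e-11), and was unread in 4TO7. The miR-29 members, reported in human cells to repress the de novo methyltransferases as well, were slightly lower in 4T1, by log2 differences of -0.41 for miR-29a, -0.38 for miR-29b and -0.23 for miR-29c. These calls moved with the scaling. The percentile over all probes left 1 of the 6 higher and 0 lower, unscaled signals 2 and 0, quantile scaling 1 and 2, and normexp correction 0 and 3. Against 168FARN, 5 of 6 were lower in 4T1 (median -1.17, with 40.3% of all tested lower) and 6 of 6 were lower in 4TO7 (median -1.09, with 39.4% lower). miR-143 was read in 168FARN alone, so that it was lower elsewhere was built into the filter.

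miR-29a and miR-29b were lowest in 67NR, the line in which miR-148b was highest. The level of miR-29a was -0.76 in 67NR, 3.46 in 168FARN, 2.62 in 4TO7 and 2.22 in 4T1, and that of miR-29b was -0.13, 3.28, 2.55 and 2.17. The level of miR-29c moved less, with -0.53, 0.15, -0.72 and -0.96. miR-185 was -2.12 in 67NR, -4.17 in 168FARN and -4.13 in 4T1. Between 168FARN and 67NR, 4 of the 6 were higher in 168FARN (38.9% of all tested) and 2 lower (48.2%), with a median of 0.99. Among the 4 was miR-143, whose direction was built into the filter. After normexp correction 3 were higher and 3 lower, with a median of 0.16. miR-342-3p, described here after its values were seen, was like miR-148b in being highest in 67NR, with a level of -0.24 there and -2.56 in 168FARN, and it was at least 39.7-fold lower in 4T1, where it was unread. The list was not of 1 direction in 4T1 against 67NR either, with 2 higher (31.9% of all tested), 3 lower (47.8%) and 1, miR-143, unread in both lines (median -0.21). That median turned to 0.14 by the percentile over all probes and 0.44 unscaled.

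Ezh2, which encodes the methyltransferase of histone H3 lysine residues in the Polycomb complex, is reported to be repressed by miR-101 and miR-26. Of miR-101a, miR-101b, miR-26a and miR-26b, 1 was higher and 3 were lower in 4T1 in each pairwise comparison, with medians of -0.67 against 67NR, -0.37 against 168FARN and -0.27 against 4TO7, where 47.8%, 40.3% and 35.4% of all tested were lower. The higher one was miR-101b, at least 5.10-fold above 67NR, where it was unread. The lower ones included miR-101a, with a log2 difference of -3.69 from 67NR. Against 67NR the split became 2 higher and 1 lower (median 0.64) unscaled and 2 and 2 (median 0.04) by the percentile over all probes. Against 4TO7 the direction also turned on the processing. There 2 were higher and 0 lower in unscaled signals, 1 and 0 by the percentile over all probes, and 0 and 3 after normexp correction. Against 168FARN the split became 1 and 1 unscaled (median -0.25) and by the percentile over all probes (median -0.12). It was 1 and 2 by quantile scaling (median -0.098) and after normexp correction (median -0.24).

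Mir148a and Mir152 lie near Hox clusters, at the distances given above, and the miRNAs of Hox clusters, miR-10a, miR-10b, miR-196a and miR-196b, were compared for that reason. The probes of miR-10b are placed on chromosome 2, where no member of the family lies. No probe of the 4 is placed on chromosome 15, where Mir148b lies, so its distance from a Hox cluster was not measured and may be short. Only the place listed for each probe was used. Further genes for the same mature miRNA were not searched for, so a signal cannot be assigned to the gene at that place. All 4 were lower in each of the other 3 lines than in 67NR, with median differences of -5.61 in 4T1, -5.61 in 4TO7 and -5.43 in 168FARN, and this held under the 4 other scalings or background corrections run. Of all tested, 47.8% were lower in 4T1 and 48.2% in each of 4TO7 and 168FARN. miR-10b and miR-196a were read on all arrays of 67NR alone, so that they were lower elsewhere was built into the filter, and the count supports nothing by itself. In 4T1, miR-10a was at least 75.6-fold, miR-10b at least 57.3-fold and miR-196a at least 41.3-fold lower, while miR-196b was read, with a log2 difference of -3.53. Like miR-148a, its neighbour miR-196b was highest in 67NR and at the floor in 168FARN. The miR-196b levels of -3.76 in 4TO7 and -3.58 in 4T1 lay close together, where miR-148a differed at least 7.50-fold under the scaling used here. miR-152 differed from its neighbours miR-10a and miR-196a in 67NR, where it was unread and both were highest. They differed in 4TO7 as well, where miR-152 had its highest level, -4.56, and both neighbours were unread. In 168FARN miR-152 and miR-10a were read and miR-196a was not, and in 4T1 all 3 were unread.

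The miR-130 and miR-301 family shares part of its 5′ sequence with the miR-148 and miR-152 family but not the whole seed. In 4T1, 3 of its 4 members were higher than in 67NR and 1 lower (median 0.64), 3 were higher than in 168FARN (median 1.04), and 4 of 4 were higher than in 4TO7 (median 0.63), where 31.9%, 33.2% and 25.7% of all tested were higher. After normexp correction 2 were higher and 2 lower than in 67NR (median -0.16), 2 were higher than in 168FARN (median 0.45) and 3 were higher than in 4TO7. miR-301a had levels of -0.41 in 67NR, -1.21 in 168FARN, -1.03 in 4TO7 and -0.27 in 4T1, and miR-301b was read in 4T1 alone, at -4.41. miR-130a was unread in 67NR and at 1.501, 1.38 and 1.54 in the other lines, and miR-130b was lower in 4T1 than in 67NR, by a log2 difference of -2.06. miR-301b entered the tested set through 4T1 alone, so that it was higher there than in every other line was built into the filter. The same holds for miR-130a against 67NR, and the counts support nothing by themselves. Their values against 4TO7 were in the direction opposite to that of all 3 members of the miR-148 and miR-152 family under the scaling used here, a direction that for miR-148b turned with no scaling.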

How the data were processed

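Total RNA of 4 lines, with 3 repeats each, was hybridised to one-colour Agilent mouse miRNA arrays. The deposited files hold spot intensity from Agilent Feature Extraction 10.2.1.3, background-subtracted with no scaling between arrays, per the file headers; the deposited value table equals those intensities (largest difference 0). Control spots and outlier-marked spots (284 to 508 per array) were left out, and no spot was saturated. Scaling, floor and the filter are described above; the brightest probe stood for a miRNA. limma 3.58.1 (R 4.3.3; lmFit, eBayes) was fitted to all 12 arrays with 4 lines as groups and 8 residual degrees of freedom, and p-values were Benjamini-Hochberg adjusted over 226 miRNAs per comparison, with a threshold of 0.05. The scripts were tested on simulated data. Members and lists were chosen with earlier results of these data known. Text names all members and probes, up to 4 miRNAs of each list by adjusted p in 4T1 against 4TO7, and the 3 miRNAs most like a member. Alternatives changed scaling, background correction (normexp, offset 50), floor, probe summary, filter, slide, replicate block, variance model and arrays used. Repeats sharing a number correlated at -0.78 to 0.52 over 18 pairs, 6 of them over 0.1, so numbers were not taken as pairs.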

Additional observations from a re-analysis of the deposited data

How the results depend on the processing

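Signal over background limited miR-152 and the lowest levels of miR-148a, whose small differences moved with floor and background correction; the cause was not tested beyond what each setting changes by construction. The calls of miR-148a between all pairs of lines but 4T1 and 168FARN, and those of miR-148b against 67NR and of 4T1 against 168FARN, kept direction and call under every alternative that tested them. Scaling by the percentile of all probes gave -0.16 for miR-152 in 4T1 minus 168FARN (adjusted p = 0.0893), 0.16 in 168FARN minus 67NR (adjusted p = 0.0775) and -0.0066 for miR-148b in 4T1 minus 4TO7. No scaling turned the last to 0.43 and gave 0.27 for miR-152 in 4TO7 minus 168FARN. Normexp correction gave, for miR-152, -0.50 in 4T1 minus 67NR, 0.00 in 4T1 minus 168FARN, -0.081 in 4TO7 minus 67NR and -0.50 in 168FARN minus 67NR, and for miR-148b 0.10 in 4TO7 minus 168FARN. The mean of all probes gave -0.063 for miR-152 in 4T1 minus 168FARN and 0.063 in 168FARN minus 67NR. Gene totals gave 1.23 and a halved floor 0.46 for miR-148a in 4T1 minus 168FARN. A doubled floor gave, for miR-152, 0 in 4T1 minus 168FARN and 168FARN minus 67NR, -0.014 in 4T1 minus 4TO7, 0.014 in 4TO7 minus 67NR and 4TO7 minus 168FARN, and -0.0046 against the mean of the other lines.

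Testing only the 97 miRNAs read on all 12 arrays, a smaller set by construction, called 88 in 4T1 minus 67NR, 77 in 4T1 minus 168FARN, 72 in 4T1 minus 4TO7, 86 in 4TO7 minus 67NR, 75 in 4TO7 minus 168FARN, 92 in 168FARN minus 67NR and 83 against the mean, and left miR-148a and miR-152 untested. Scaling moved the split of calls: 4T1 minus 4TO7 had 58 higher and 80 lower as reported, 104 and 7 unscaled, 78 and 40 by the percentile over all probes, and 32 and 119 after normexp correction. In 4T1 minus 67NR the split was 72 and 108 as reported, 104 and 66, 91 and 88, and 40 and 174 under the same settings. Splits of the others that moved by over 10 points were, for 4T1 minus 168FARN, 75 and 91 as reported and 95 and 73 by the percentile over all probes; for 4TO7 minus 67NR, 71 and 109 as reported, 81 and 82 unscaled and 47 and 153 after normexp; for 4TO7 minus 168FARN, 77 and 89, 38 and 127, and 100 and 54; and for 168FARN minus 67NR, 88 and 109, 107 and 72, and 50 and 158. Against the mean, 64 and 136 became 88 and 108 by quantile scaling and 38 and 171 after normexp. With no scaling the median of all tested miRNAs shifted by 0.34 in 4T1 minus 4TO7, -0.49 in 4TO7 minus 168FARN and 0.41 in 168FARN minus 67NR, and under normexp by -0.56 in 4T1 minus 67NR.

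With the replicate number as a block no call of a member changed; miR-148b in 4T1 minus 4TO7 stayed at -0.28 with an adjusted p of 0.00019, and 1 of 12 arrays correlated best with its own number in another line. Slide as a term gave -0.60 for miR-148b in 4T1 minus 168FARN, and slide 2 alone -0.60. Leaving out each array in turn changed no call of a member: miR-148b in 4T1 minus 4TO7 ranged from -0.29 to -0.27 and miR-152 in 4T1 minus 168FARN from -0.13 to -0.11.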
